A study of Danio rerio with 30 samples.

Results

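The second and the first segment of the adult zebrafish intestine, S2 and S1, were compared on spotted oligonucleotide arrays. These segments make up the rostral intestinal bulb, the wide first portion of the gut of this stomachless fish. The arrays were chosen by their titles, 5 of S1 and 5 of S2, which are 10 of the 30 arrays of the series. All fish were wild-type males about a year old, and each replicate was a separate pool of the same segment from 10 fish. Segment RNA carried the dye Cy5, and every array also carried Cy3-labelled reference RNA of whole wild-type fish, mixed from males and females at 9 to 1. A log2 ratio of 0 therefore means the same level in the segment as in the whole fish, and a difference between S2 and S1 is the mean log2 ratio of S2 minus that of S1.

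The rostral bulb receives food, bile and pancreatic juice, and its enterocytes digest and absorb fat and protein. In zebrafish the liver lobes lie against this part of the gut. Pancreatic tissue is spread in the mesentery along it, with hormone-producing islets among the enzyme-producing acini. The segments were cut from isolated intestine, which the study's anatomy figure shows with the mesentery around it removed. The array methods refer to that figure for the cuts and do not state how much attached tissue remained. Each pool held every tissue left on the piece, and fewer cells of a type cannot be told apart here from less RNA per cell. The comparison asks whether the front and back of the bulb differ in their transcripts.

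The epithelial markers matched the label. The 6 epithelial markers measured, vil1 (villin, of the microvilli), fabp2, fabp1b.1 (fatty acid binding proteins), apoa1a, apoa4a (apolipoproteins) and slc15a1b (the peptide transporter), had mean log2 ratios from 1.5 to 4.59 in S1 and from 2.00 to 4.37 in S2. Cy5 was saturated on all 10 arrays for apoa1a, on 9 each for fabp2 and fabp1b.1, on 6 for apoa4a and on 2 for slc15a1b. Of the skeletal muscle markers, tnnt3b (a fast troponin T) was far below the whole fish, at -4.28 ± 0.35 in S1 and -4.84 ± 0.64 in S2 (SD, n = 5), and actc1b (an alpha actin), saturated in both dyes on most arrays, was at -0.64 ± 0.25 and -0.91 ± 0.48. Of the epidermis and esophagus markers, krt5 was at -3.96 in S1 and -4.65 in S2. krt4 and evpla were above the whole fish, at 0.87 and 0.92 in S1 and 1.06 and 0.97 in S2. Cy5 was above background on 46.1% to 67.5% of spots of the S1 arrays and on 43.2% to 63.1% of the S2 arrays. The ratios correlated across probes with a mean Pearson's r of 0.912 within S1, 0.879 within S2 and 0.872 between them. S2 replicate 5 stood apart. Its mean r was 0.909 with the S1 arrays and 0.855 with the other S2 arrays. Results are therefore given with and without it. It was set apart by the same ratios that are tested, so calls made without it are not independent support.

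Few probes separated the segments. Of 18216 probes tested, 20 were lower in S2 (0.11%) and 2 were higher (0.011%) at a limma adjusted p under 0.05. Without adjustment, 7.45% of all probes were lower and 3.34% higher at p under 0.05. In 2.22% of probes all S2 arrays lay below all S1 arrays, and in 1.11% all lay above. All 22 called probes were without overlap, 11 of them carried a gene symbol, and every one of those 11 was lower in S2. Without S2 replicate 5 the calls were 570 lower (3.13%) and 252 higher (1.38%), and all 22 were among them. With the 24 arrays of S1 to S5 in the fit, which share an estimate of the spread, they were 138 lower (0.758%) and 17 higher (0.0933%).

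Of the gene lists examined, that of the pancreatic islet had the lowest median difference. The islet hormones are peptides that set blood glucose: insulin from beta cells, glucagon from alpha cells and somatostatin from delta cells. Of 15 genes on the endocrine pancreas list, 8 were on the array and 5 passed the filter on dim probes. All 5 were lower in S2 at unadjusted p under 0.05, beside 7.45% of all probes, and 2 of them, sst1.1 and pdx1, passed the adjustment, beside 0.11%. The median difference of the list was -1.91, against -0.03 over all probes tested. The genes sst1.1, sst2 and gcga are also on the list of enteroendocrine cells of the gut, whose 11 tested genes had a median of -0.15.

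sst1.1, a somatostatin gene, had log2 ratios of 3.69, 3.39, 3.59, 3.13 and 3.6 in S1 replicates 1 to 5. In S2 they were 0.69, 1.25, 1.85, 0.97 and 2.60. All S2 arrays lay below all S1 arrays, and replicate 5 lay nearest to S1. The transcript fell by 2.01 ± 0.31 on the log2 scale (SE; limma adjusted p = 0.0458), a 4.02-fold difference.

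ins, the insulin gene, gave 3.21, 3.16, 3.27, 2.82 and 3.34 in S1 and 0.16, 0.36, 1.46, 0.45 and 2.90 in S2. Here the highest S2 array, replicate 5, reached into the S1 range. The difference was -2.09 ± 0.45 (SE) and missed the threshold with a limma adjusted p of 0.0962. sst2, another somatostatin gene, differed by -1.91 ± 0.39 and gcga, the glucagon gene, by -1.79 ± 0.37, both with an adjusted p of 0.0879. In both of these all S2 arrays lay below all S1 arrays. A second gcga probe differed by -1.38 ± 0.33.

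pdx1, a homeobox factor of the pancreas, beta cells and anterior gut, had ratios of 1.32, 1.54, 1.11, 1.09 and 1.4 in S1 and 0.18, 0.48, 0.40, 0.30 and 0.24 in S2. S2 replicate 5 was as low as the other S2 arrays, unlike for the hormone genes. The ratio fell by 0.97 ± 0.12 on the log2 scale (limma adjusted p = 0.0211). In Cy5 alone its difference was only -0.20 (adjusted p = 0.543), while the Cy3 signal of the reference was 0.54 higher on the S2 arrays. The 4 hormone genes moved in Cy5 instead, by -1.84 to -2.61, with -0.12 to -0.35 in Cy3.

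**Figure D1:**
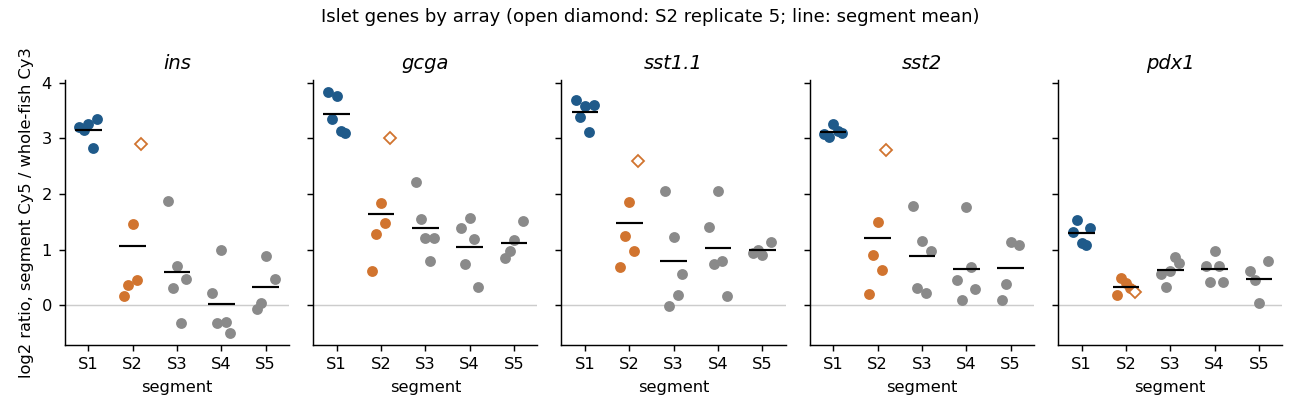
Log2 ratio of segment Cy5 to whole-fish Cy3 for 5 islet genes (vertical axis) on each array of S1 to S5 (horizontal axis), with points for arrays, lines for segment means and an open diamond for S2 replicate 5. For ins the S1 arrays sit between 2.82 and 3.34 and S2 replicates 1 to 4 between 0.16 and 1.46, while replicate 5 is at 2.90.

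The median of the 5 islet genes on an array was 3.1 to 3.27 in S1. In S2 replicates 1 to 5 it was 0.21, 0.91, 1.5, 0.64 and 2.79. The S1 arrays were thus close together and the S2 arrays wide apart, with an SD of 0.07 against 1.00 (n = 5). The S2 mean of 1.21 was above those of the segments that follow, 0.86 in S3, 0.74 in S4 and 0.76 in S5, by less than its own SD. Without S2 replicate 5 all 5 genes were called lower, beside 3.13% of all probes, each with a limma adjusted p of 0.00484 or less. For the hormone genes that array lay nearest to S1, so leaving it out had to enlarge their differences. With 24 arrays in the fit all 5 were called lower as well, beside 0.758% of all probes, with ins at 0.0186 and pdx1 at 0.00218.

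Genes of hepatocytes had smaller differences, most of them in the same direction. The liver makes most plasma proteins, among them the fibrinogen chains, complement, transport proteins and protease inhibitors. Of 54 genes on the liver list, 34 were on the array and 33 were tested. At unadjusted p under 0.05, 28 of the 33 were lower in S2 and 1 was higher, beside 7.45% lower over all probes. None passed the adjustment in limma, where the smallest adjusted p was 0.0879. The median difference of the list was -1.0, and 13 of 33 genes had all S2 arrays below all S1 arrays, beside 2.22% of all probes.

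plg, the plasminogen gene, had ratios of 0.63, 0.81, 1.15, 0.77 and 0.53 in S1 and 0.10, -0.67, 0.12, -0.71 and 0.00 in S2. No S2 array reached the lowest S1 array. The difference was -1.01 ± 0.20 (SE; limma adjusted p = 0.0879). hpda, an enzyme of tyrosine breakdown, differed by -1.24 ± 0.25 and ahsg2, a fetuin secreted into plasma, by -1.16 ± 0.24, with the same adjusted p. uox, the urate oxidase of peroxisomes, differed by -1.23 ± 0.27 (adjusted p = 0.103).

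Other members had differences of like size, which missed the threshold as well. fga, the fibrinogen alpha chain, was at -1.26 ± 0.30 (limma adjusted p = 0.133), and its other probes were at -1.0 ± 0.32 and -0.31 ± 0.14. fgb, the beta chain, was at -1.15 ± 0.33 (adjusted p = 0.208) and ambp, the alpha-1-microglobulin precursor, at -1.0 ± 0.28 (0.202). fabp10a, the liver fatty acid binding protein, was at -1.22 ± 0.31, but its Cy5 signal was saturated on 4 of 5 S1 arrays and 1 of 5 S2 arrays. tfa, transferrin, was at -0.92 ± 0.27 and was saturated on 5 S1 arrays and 1 S2 array, so that its difference can be compressed. The member with an unadjusted p under 0.05 in the other direction was cyp7a1, the first enzyme of bile acid synthesis, at 0.69 ± 0.25 (adjusted p = 0.318).

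The liver list differed more in the segment dye than in the reference dye. The list median was -1.03 in Cy5 alone and -0.07 in Cy3, and Cy5 moved more than Cy3 in 30 of the 33 genes. By array the median ratio was 0.03, 0.72, 0.76, 0.14 and 0.03 in S1. It was -0.26, -1.05, -0.38, -1.05 and -0.15 in S2. All S2 arrays were below all S1 arrays, though the gap between the highest S2 and the lowest S1 array was narrow. S3 lay lower still, with a mean of -1.47, and S4 and S5 near S2, at -0.72 and -0.60. With 24 arrays in the fit 11 of the 33 liver genes were called lower, beside 0.758% of all probes, among them ahsg2 (limma adjusted p = 0.0156), fga (0.033), uox (0.0353), plg (0.0369) and hpda (0.0462). Without S2 replicate 5 the number was 13, beside 3.13% of all probes.

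**Figure D2:**
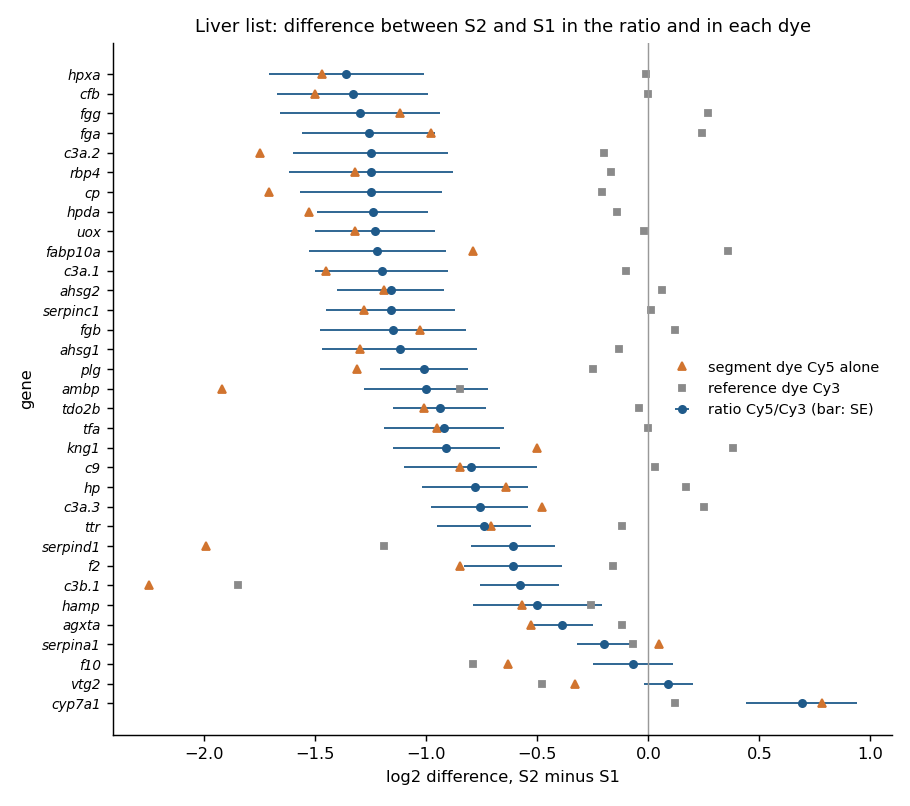
Difference S2 minus S1 on the log2 scale (horizontal axis) for the 33 liver genes (vertical axis), as the ratio with its SE (circles and bars), in Cy5 alone (triangles) and in Cy3 (squares). Circles and triangles lie left of 0 for most genes, with list medians of -1.0 and -1.03, while the squares lie around 0, with a median of -0.07.

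No gene of the exocrine pancreas was called. Its list covers the digestive enzymes of the acini. Of 24 genes tested, 1 was higher and 0 were lower at unadjusted p under 0.05, beside 3.34% and 7.45% of all probes. None was called, and the median difference was 0.07. The array medians ranged from -0.36 to 0.24 in S1 and from -0.23 to 0.44 in S2, and the segments overlapped. Cy5 was saturated on at least 9 of the 10 arrays for 15 of the 24 genes and on at least 5 for 19, so that a difference in this list could not be measured well and the counts do not show that the segments are alike. By the brightest probe of each gene, amy2al2, an amylase gene, had the smallest p of the list at 0.78 ± 0.31 (limma adjusted p = 0.393), with 0.21 in Cy5 alone and -1.16 in Cy3, followed by cel.2, a bile salt-activated lipase, at 0.44 ± 0.21 and ela2l and ela2, related elastases whose probes may share signal, both at 0.29. The Cy5 signals of cel.2 and ela2 were saturated on all 10 arrays and that of ela2l on 9. A second, dimmer probe of the elastase cela1.3 was at 0.79 ± 0.29 (adjusted p = 0.324). S4 and S5 had higher means than the bulb for this list, at 1.39 and 1.5, against -0.06 in S1 and 0.08 in S2.

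**Figure D3:**
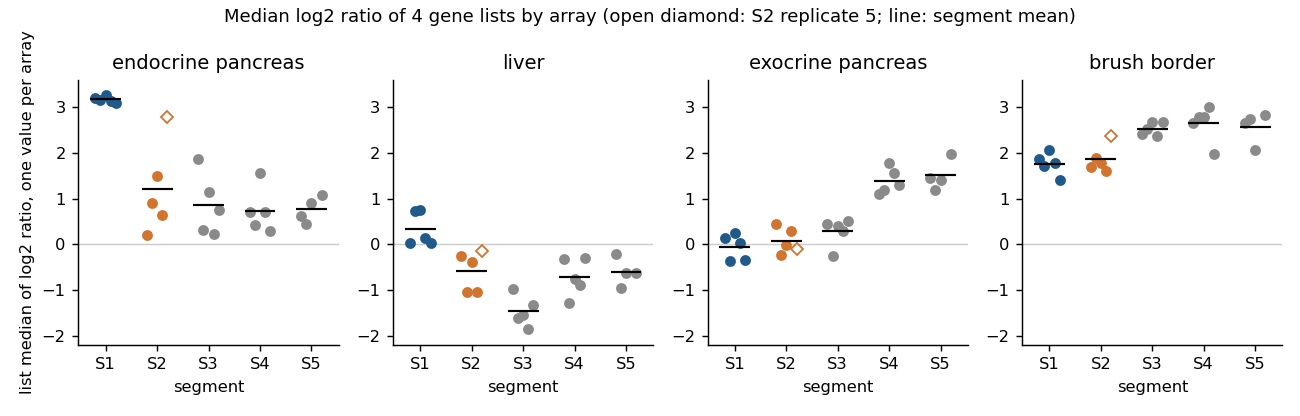
Median log2 ratio of 4 gene lists (vertical axis) on each array of S1 to S5 (horizontal axis), with lines for segment means and an open diamond for S2 replicate 5. Endocrine pancreas and liver medians are higher in S1 than in S2 (means 3.17 against 1.21 and 0.34 against -0.58), while exocrine pancreas and brush border medians overlap between S1 and S2.

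Outside these lists, fabp3 was the clearest gene of fat handling. This cytosolic fatty acid binding protein had ratios of -0.55, 0.19, -0.41, -0.25 and -0.33 in S1 and -1.28, -1.47, -1.10, -1.40 and -1.22 in S2. Every S2 array was lower than every S1 array, replicate 5 included. It fell by 1.02 ± 0.14 on the log2 scale (limma adjusted p = 0.0367), and by 1.21 in Cy5 alone (0.0146). Of the 22 tested genes for fatty acid uptake and binding, 6 were lower and 1 higher at unadjusted p under 0.05, beside 7.45% and 3.34% of all probes, and fabp3 alone was called, beside 0.11% called lower. Others with small p were slc27a1a, a fatty acid transporter, at -0.40 ± 0.11, and dgat1a, which makes triglycerides, at -0.69 ± 0.19. The Cy5 signal of dgat1a was above background on 1 of the 5 S2 arrays, and its Cy3 difference was -2.43. The list includes fabp10a, which is also in the liver list.

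padi2, a peptidylarginine deiminase that turns arginine of proteins into citrulline, gave the smallest p of the named genes. Its ratios were 0.92, 0.76, 0.85, 0.61 and 0.96 in S1 and -0.01, -0.21, -0.28, -0.11 and -0.03 in S2. The S2 values lay close together and clearly below S1. padi2 fell by 0.95 ± 0.11 (limma adjusted p = 0.0136), and by 1.36 in Cy5 alone (0.00359). A second padi2 probe, above background in Cy5 on 3 S1 arrays and 1 S2 array, was at -0.57 ± 0.17 (adjusted p = 0.215). The mean ratio went on down in S3 to S5, to -0.68, -0.58 and -0.78.

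A pair of called genes encode proteins that the mammalian liver secretes, though neither was in the liver list. cpb2, the plasma carboxypeptidase B2 that slows clot lysis, was at 0.40, 1.24, 1.21, 0.53 and 0.61 in S1 and at -0.23, -0.76, -0.36, -0.85 and -0.45 in S2. It fell by 1.33 ± 0.20 (limma adjusted p = 0.0407). vtna, a vitronectin of plasma and matrix, had a mean of 1.09 ± 0.31 in S1 and 0.10 ± 0.18 in S2 (SD, n = 5). It fell by 0.99 ± 0.16 (adjusted p = 0.0498). In Cy5 alone neither was called, with -1.18 (0.101) and -0.67 (0.0978).

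The remaining called genes with names were also lower in S2. nipsnap1, a mitochondrial matrix protein, had means of 1.64 ± 0.20 in S1 and 0.71 ± 0.13 in S2 (SD), a difference of -0.93 ± 0.12 (SE; limma adjusted p = 0.0292). meis1a, a homeobox factor, had means of 0.94 ± 0.20 and 0.07 ± 0.17, a difference of -0.88 ± 0.13 (0.0379). For both, Cy5 alone differed by only -0.02 and -0.13, and Cy3 by 0.67 and 0.58, with neither dye called by itself. The Cy3 signal of meis1a was above background on 0 S1 arrays and 2 S2 arrays, so the size of its ratio difference is uncertain. cd9a, a tetraspanin of the cell membrane, fell by 0.63 ± 0.09 (0.0379). Its Cy5 signal was above background on 5 S1 arrays and 3 S2 arrays, and Cy5 alone differed by -0.57 (limma adjusted p = 0.36). anxa11b, an annexin, fell by 0.60 ± 0.10 (0.0498), and its second probe was at -0.27 ± 0.12. The clone-named zgc:92161 fell by 0.72 ± 0.11 (0.0407), with its second probe at -0.93 ± 0.21 (0.11). In S3 the means of nipsnap1, meis1a and cd9a were above those of S2, at 1.03, 0.63 and 1.48. Those of anxa11b and zgc:92161 were below, at -0.58 and 1.63.

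The 11 called probes without a symbol included both higher ones. Probe 5462842 gave the smallest p of all, with ratios of 0.08, 0.10, 0.08, 0.17 and 0.11 in S1 and 1.72, 1.89, 1.74, 1.59 and 1.35 in S2. Neither its Cy5 nor its Cy3 signal was above background on any S1 array, and both were above it on every S2 array. In normalized Cy5 it was at least 22.2-fold higher in S2, the S1 signal being set to the higher of its own value and the lowest signal above background on that array. The limma adjusted p of the ratio was 0.000486. Its Cy3 signal was also higher on the S2 arrays, by 3.27 (adjusted p = 4.3e-07), so the reference differed too. With both dyes at background in S1, the S1 ratios measure no transcript level. The part of segment RNA in these differences was not tested. Probe 5452258, the other probe called higher (adjusted p = 0.0407), was above background in Cy5 on 2 S1 arrays and 0 S2 arrays. That count uses the median brightness of a spot, while the ratio uses the mean. By the mean, Cy5 alone was 1.85 higher in S2 on the log2 scale (limma adjusted p = 0.026). The 2 measures disagree, so the size of the ratio difference is uncertain.

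Among the lower unnamed probes, 5454748 had ratios of 3.41, 2.75, 3.05, 2.98 and 3.19 in S1 and 2.01, 1.54, 1.33, 1.67 and 1.74 in S2. Its mean was lower again in S3, at 0.19, and in S4, at -0.75, so that S2 lay between S1 and the mid-intestine. It fell by 1.42 ± 0.16 between S1 and S2 (limma adjusted p = 0.0136). In contrast, 5 of the lower unnamed probes were higher in S2 in Cy5 alone. The mean ratios of these 5 did not go on down, with 1.78 to 2.09 in S1, 0.43 to 0.71 in S2 and 1.91 to 2.32 in S3. Probe 5461240 is one, with a ratio lower by 1.35 ± 0.19 but a Cy5 difference of 1.65 (adjusted p = 0.299) and a Cy3 difference of 2.39 (0.156).

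Transcription factors of the gut and endoderm showed pdx1 as the 1 called gene of 30 tested, with 6 lower and 1 higher at unadjusted p under 0.05, beside 0.11% called lower, 7.45% lower and 3.34% higher over all probes. foxa1, a forkhead factor of endoderm, was at -1.01 ± 0.26 (limma adjusted p = 0.157), nr5a2, a nuclear receptor of liver, pancreas and gut, at -0.79 ± 0.19 (0.141) and her9, a Notch-type repressor, at -0.50 ± 0.16 (0.247). foxa1 and her9 were above background in Cy5 on 1 and 2 of the 5 S2 arrays. Of 17 hox genes tested, which mark position along the body axis, 2 were lower, 1 was higher and none was called. hoxb9a was at -1.0 ± 0.25 (0.149), hoxc11a at -0.59 ± 0.17, hoxc8a at 0.36 ± 0.12 and hoxd10a at 0.18 ± 0.13, and hoxc11a and hoxc8a were each above background in Cy5 on 1 S1 array and 3 S2 arrays.

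No brush border gene was called. Of 9 brush border genes tested, 1 was higher and 0 lower at unadjusted p under 0.05, beside 3.34% and 7.45% of all probes. enpep, an aminopeptidase of the brush border, was that gene, at 0.54 ± 0.18 (limma adjusted p = 0.289). pls1, which bundles actin in microvilli, was at -0.28 ± 0.16 and vil1 at -0.30 ± 0.19, with a second vil1 probe at -0.74 ± 0.31. nherf1a, a scaffold of the brush border membrane, was at 0.21 ± 0.16, but its Cy5 signal was above background on no S1 array and 4 S2 arrays. Its Cy5 was at least 2-fold higher in S2 with the average intensities of the arrays equalized. Quantile normalized by itself, Cy5 differed by 1.38 on the log2 scale (limma adjusted p = 0.0124). Its Cy3, above background on no S1 array and 3 S2 arrays, was 1.31 higher on the log2 scale (0.015). Both dyes thus moved together, and the part of segment RNA in the Cy5 difference was not tested.

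Of 15 lipoprotein genes, 1 was lower at unadjusted p under 0.05, beside 7.45% of all probes. This was apom, an apolipoprotein secreted by liver and kidney in mammals, at -1.10 ± 0.33 (limma adjusted p = 0.234). The intestinal apolipoproteins apoa1a (0.49 ± 0.28), apoa4a (-0.22 ± 0.21) and apobb.1 (-0.34 ± 0.24), and the cholesterol exporter abca1b (-0.25 ± 0.19), had adjusted p from 0.571 to 0.754. The Cy5 signal was saturated on all 10 arrays for apoa1a, on 7 for apobb.1 and on 6 for apoa4a, so these ratios can miss a difference. Among 9 peptide and amino acid transporters, slc38a4 was at -1.37 ± 0.36 (0.172), while slc38a2, slc38a5b and slc3a2a were at -0.27, -0.21 and 0.61. S1 and S2 overlapped in slc38a4 through S1 replicate 1, at 0.62, and S2 replicate 5, at 1.13. Of 13 genes of sugar handling, 3 were lower at unadjusted p under 0.05, beside 7.45% of all probes, and none was called. They were gys2, a glycogen synthase of liver, at -0.76 ± 0.15 (0.0879), the glycogen phosphorylase pygl at -0.47 ± 0.20 and g6pc1a.1, a glucose-6-phosphatase, at -0.46 ± 0.21. g6pc1a.1 was above background in Cy5 on 2 S1 arrays and 1 S2 array. slc2a11b, a sugar transporter, was at 0.19 ± 0.09.

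Stomach-type genes had 8 members tested, of which sst1.1 was called lower, beside 0.11% of all probes. nots, a nothepsin protease, was at -0.81 ± 0.23 (limma adjusted p = 0.201), the chitinase chia.1, saturated in Cy5 on all 10 arrays, at -0.32 ± 0.17 and lipf, a gastric lipase, at -0.20 ± 0.14. Of 10 further genes in the naming rule, none was called between these segments. fabp2, saturated in Cy5 on 9 arrays, was at 0.47 ± 0.30, gdpd1 at -0.44 ± 0.28, zgc:110410 at -0.47 ± 0.16, mbl2 at -0.26 ± 0.21, aqp3a at -0.27 ± 0.36, cfl1 at -0.07 ± 0.20, calm2b at -0.11 ± 0.11, ctsc at -0.09 ± 0.13 and ctsh at -0.18 ± 0.19, and the second apoa4 gene, apoa4b.1, saturated on all 10 arrays, was at 0.16 ± 0.23. aqp3a was above background in Cy5 on 1 S2 array, and zgc:110410 in Cy3 on 1 S1 array. Their limma adjusted p ranged from 0.31, for zgc:110410, to 0.94, for cfl1. Named after their values were seen, the aquaporin aqp1a.1 was at -0.80 ± 0.14 (0.0721) and aqp10a at -0.58 ± 0.27 (0.481), neither of them called. Over the 34 lists beside endocrine pancreas and liver, list medians lay between -0.18 and 0.08. Called members in those lists were fabp3, pdx1 and sst1.1 alone, the last in 2 lists.

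The reference dye carries no segment RNA, and the labels describe the same reference for every array. Its differences are those of a single dye and do not measure the error of the ratio. In Cy3, 37 probes were higher on the S2 arrays (0.203%) and 2 lower (0.011%) at a limma adjusted p under 0.05. In Cy5 alone 59 were higher (0.324%) and 33 lower (0.181%). Of the 22 probes called on the ratio, 7 were called in Cy5 alone, 1 in Cy3, and in 8 the Cy3 signal moved more than Cy5. The S1 arrays 1 to 4 had a mean Cy3 correlation of 0.954 to 0.974 with the S3 arrays, and S1 replicate 5 had 0.852. The S2 arrays 1 to 4 had 0.857 to 0.909, and S2 replicate 5 had 0.966.

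The reference signal thus differed between arrays mostly as the segments did, with 1 exception in each. S1 replicate 5, whose Cy3 correlation with the S3 arrays was as low as in S2 replicates 1 to 4, had an islet median of 3.1. The other S1 arrays had 3.13 to 3.27, and the highest of S2 replicates 1 to 4 had 1.5. The liver median of S1 replicate 5 was 0.03, equal to that of S1 replicate 1. S2 replicate 5, with a Cy3 signal like that of S1, had an islet median of 2.79, nearer to the lowest S1 array at 3.1 than to the next S2 array at 1.5, and a liver median of -0.15. With the Cy3 correlation as a covariate in limma, the calls were 4 lower and 1 higher, with list medians of -1.62 for islet and -0.85 for liver. This covariate was chosen after the values were seen. Leaving out S2 replicate 5 moved the number of probes called in Cy3 from 39 to 3248, so the higher count of ratio calls without it came with a larger difference in the reference. The part of the reference in those calls and in the list differences was not tested.

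**Figure D4:**
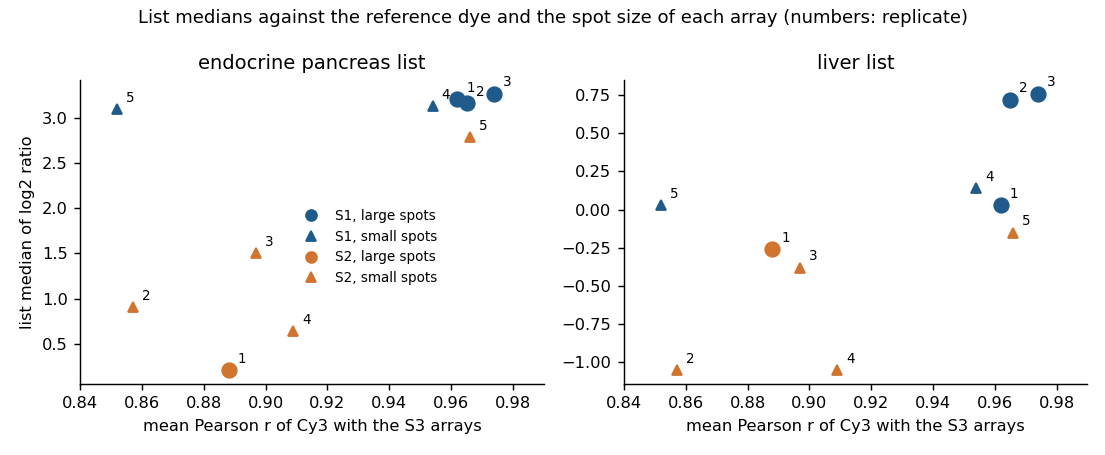
Median log2 ratio of the endocrine pancreas list (left) and the liver list (right) on each S1 and S2 array (vertical axes) against the mean Pearson's r of its Cy3 signals with the S3 arrays (horizontal axes), with circles for arrays of large spots, triangles for small spots and replicate numbers beside the points. S1 replicate 5 (r of 0.852) and S2 replicate 5 (r of 0.966) lie apart from the other arrays of their segments along the horizontal axis, and the islet median of S2 replicate 5, at 2.79, lies nearer to the S1 arrays than to the next S2 array, at 1.5.

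Spot size, the scanner's AREA in pixels, fell into 2 classes of array. The median AREA was 392, 392 and 460 pixels in S1 replicates 1 to 3 and 120 in replicates 4 and 5. It was 460 in S2 replicate 1 and 120 in replicates 2 to 5. Large spots were thus on 3 S1 arrays and 1 S2 array. The mean median AREA was 297 pixels in S1 and 188 in S2 (exact two-sided permutation test, p = 0.524, n = 5 each; adjusted over 6 array measures 0.984). The percent of spots above background and the percent saturated, in either dye, had adjusted p of 0.984 too, as had the Cy3 correlation with the S3 arrays. The smallest p that 5 against 5 arrays allow is 0.00794.

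Since no called probe overlapped between the segments, their direction within the classes was fixed and is not a check on spot size. Islet genes had a median difference of -2.91 within large and -1.66 within small spots, and liver genes -0.83 and -0.78. The only S2 array with large spots, replicate 1, had the lowest islet median of S2, at 0.21. S2 replicate 5, at 2.79, was among the small-spot arrays. The part of these arrays in the contrast between classes was not tested. In a limma fit with a mean for each class and segment, 4 probes were called lower within the large-spot arrays, where S2 has a single array assumed to vary like the rest, and 0 within the small-spot arrays. The class itself, with segment in the model, had 0 called probes. With log2 of the median AREA as a covariate 1 probe was called higher and 0 lower. The list medians then were -2.10 and -0.92. Both differed from the reported medians by less than the SD between arrays of S2. The fits share the same arrays, so this does not show that the medians are stable.

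The AREA of single spots was also used. Leaving out spots under 0.5 of their array's median AREA left 20 lower and 2 higher, the same 22 probes. Weighting spots by AREA gave 18 and 2, and removing the median ratio of each AREA value within an array gave 13 and 2, all of them among the 22. Split into 3 classes by mean relative AREA, the tested probes held 9 calls of 6087 in the smallest, 5 of 6080 in the middle and 8 of 6049 in the largest class. An unadjusted p under 0.05 was found in 624, 625 and 718 of them.

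The calls also depended on the normalization. Without background correction 121 probes were lower and 29 higher, with all 22 among them, and with plain background subtraction 60 and 13, with 18 of the 22. Centring each array on its median in place of the loess curve, which follows intensity, gave 0 lower and 2 higher and moved the median over all probes to 0.15. Scaling the spread of the arrays to each other gave 11 and 1, while equalizing their average intensities (Aquantile), which leaves the ratios as they are, kept 20 and 2 by construction. The authors' own value table gave 13 and 11, so that its share of higher calls was 45.8% against 9.09% here, and Cy5 alone had 64.1%. Across these settings the islet median stayed between -1.71 and -2.06 and the liver median between -0.86 and -1.24.

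padi2 was called in 21 of 24 alternative fits, pdx1 in 19, and fabp3, meis1a and nipsnap1 in 17 each. sst1.1 and cd9a were called in 15, cpb2 in 13, and vtna and anxa11b in 11. Among the 24 are the unchanged Aquantile ratios and the reported fit limited to differences of at least 1.5-fold, which all 22 called probes reached. Both keep the 22 calls by construction. Also among the 24 is the fit with array quality weights, which gave S2 replicate 5 the lowest weight, 0.206. The 10 fits that leave out an array of S1 or S2 are not counted in the 24. Leaving out any single array other than S2 replicate 5 left at most 8 probes lower and 1 higher. The higher one was probe 5462842, called in 10 of 10 such fits, while padi2 was called in 4, pdx1 in 3 and fabp3, sst1.1 and cpb2 in 1, the fit without S2 replicate 5.

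**Figure D5:**
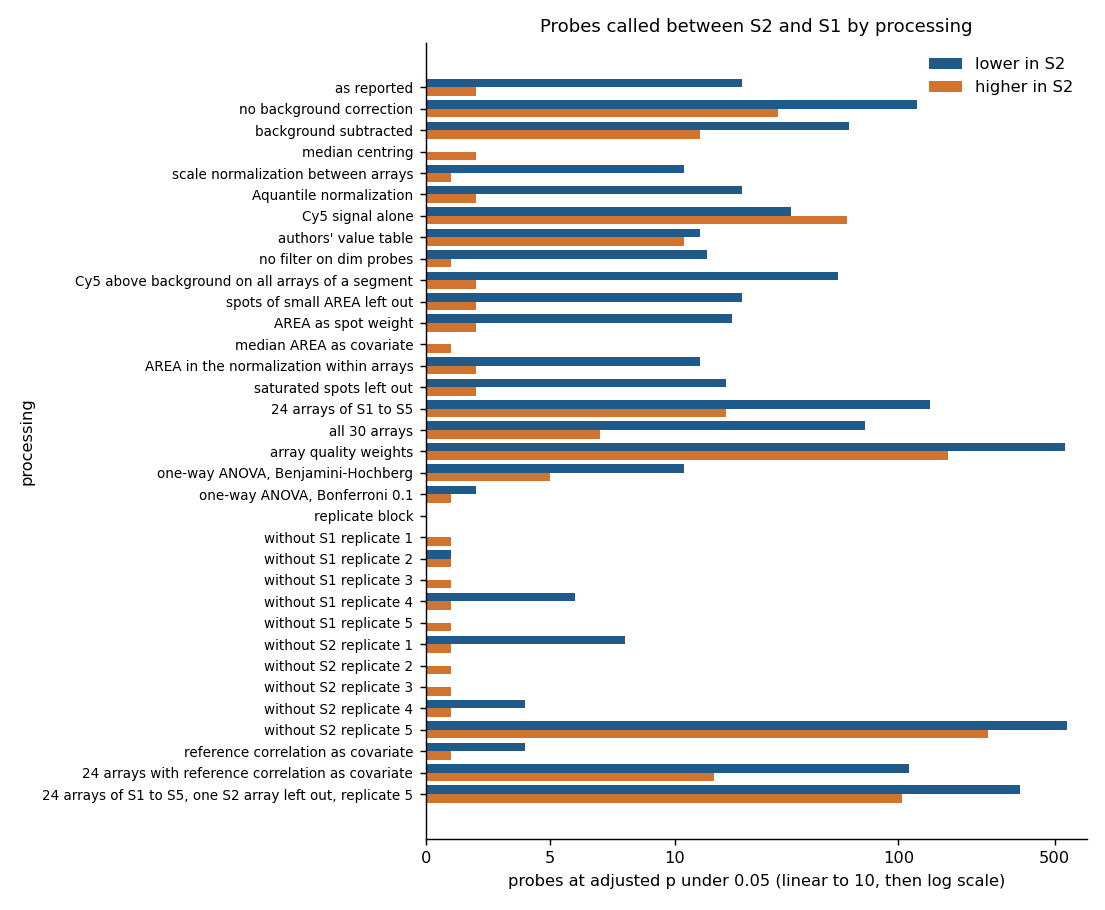
Number of probes called lower (blue) and higher (orange) in S2 at an adjusted p under 0.05 (horizontal axis, linear to 10 and logarithmic beyond) under each way of processing (vertical axis). The reported fit has 20 and 2, and counts run from 0 and 0 with the replicate block to 570 and 252 without S2 replicate 5.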

How the data were processed

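RNA of S1 and S2 segments (Cy5) was hybridized with whole-fish reference RNA (Cy3) on arrays of 23232 spots. As deposited, the intensity columns hold scanner brightness of each spot and its local background in both dyes, not normalized. The AREA of a spot was deposited by the authors in pixels, as another scanner value. The log2 values that the authors supplied are their own log2 ratios of Cy5 to Cy3, used only as an alternative. The labels and the methods differ in how the RNA was labelled.

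Ratios were computed in limma 3.58.1 under R 4.3.3 by the normexp method with an offset of 50 and loess within each array. The 245 control spots, whose accession is on the array at least 10 times, had no weight and were left out. Probes entered the test if Cy5 or Cy3 stood more than 2 background SD over the local background on 3 or more arrays within S1 or within S2. S2 was compared with S1 by limma's moderated test and Benjamini-Hochberg adjustment over all 18216 probes, which represent 8418 named genes and probes without a symbol. Cy5 and Cy3 signals alone were quantile normalized. The lower bounds of a fold difference in Cy5 were instead taken after the average intensities of the arrays were equalized (Aquantile). A spot counted as saturated at a median of 65000 or more. The scripts were tested on simulated data.

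Symbols come from the platform annotation, updated through the GRCz12tu gene table: 11724 spots carry a symbol and 11508 none, and 7978 symbols were updated through a synonym. A gene with several probes is represented by the brightest. Genes were named by a rule: up to 10 called genes in each direction with a name other than a clone name, no overlap between segments and a Cy5 signal over background throughout the higher segment; up to 4 members with the smallest p of each described list, and those of the other direction; a short list of genes drawn from the study; all 5 islet genes; and marker genes. Called probes outside it were named after their values were seen. The comparison, the 36 gene lists and the rule were chosen with earlier results of these data known. The number of arrays limits the precision. Replicates of a segment are separate pools, so p-values measure the spread between pools and arrays. Whether S1 and S2 pools of the same number came from the same fish is not stated. The reported test treats them as independent, and with the replicate number as a block 0 probes were called.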

Additional observations from a re-analysis of the deposited data

Results flagged for a closer look

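Of 88 sets of 5 arrays examined, 4 held an array far from the rest, and chance marks about 1 in 20. S1 replicate 5 had the lowest mean Cy3 correlation with the S3 arrays in S1, at 0.852. S2 replicate 1 had the largest median spot AREA in S2, at 460 pixels, with the other S2 arrays at 120, and it had the lowest percent of spots above background in Cy5, at 43.2%. ctsh, a lysosomal cathepsin, was lowest in S1 replicate 2, with a log2 ratio of 0.25 against 0.79 to 0.91 on the other S1 arrays.

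For 3 probes the difference between S2 and S1 itself differed between arrays of large and of small spots, by a limma interaction term. They were probe 5447715 (difference of 3.64, adjusted p = 0.00176), probe 5464785 (3.17, 0.0122) and the probe of ndufab1b, a mitochondrial acyl carrier protein (2.87, 0.0122). In all 3 the value came from S2 replicate 1, the only S2 array with large spots. Its log2 ratios were -3.34, -3.02 and -3.41, while all 9 other arrays lay between -0.54 and 1.03.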

How the results depend on the processing

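The counts of probes lower and higher in S2, 20 and 2 as reported, depended on the processing. They were 121 and 29 with no background correction, 60 and 13 with the background subtracted, 0 and 2 with median centring, 11 and 1 with scale normalization, 33 and 59 in Cy5 alone, 13 and 11 in the authors' value table, 14 and 1 with no filter on dim probes, and 54 and 2 with Cy5 above background on all arrays of a segment. AREA as a term of the normalization gave 13 and 2, and median AREA as a covariate 0 and 1. With 24 arrays they were 138 and 17, and with 30 arrays 71 and 7. Array quality weights, estimated from the tested ratios, gave 555 and 167. They were lowest for S2 replicate 5, at 0.206, and 0.731 to 2.63 for the other arrays. The methods' one-way ANOVA gave 11 and 5 after Benjamini-Hochberg and 2 and 1 at a Bonferroni corrected 0.1. Chosen after seeing the data, the Cy3 correlation as a covariate gave 4 and 1 on 10 arrays and 112 and 15 on 24, and 24 arrays less S2 replicate 5 gave 351 and 104. Leaving out one array gave 0 to 570 lower and 1 to 252 higher. With the replicate number as a block (replicate block) 0 and 0 were called. Replicate numbers were not used as pairs in the reported fit. Deviations of same-numbered arrays correlated between -0.167 and 0.0944, which cannot tell whether those pools came from the same fish. The methods do not state it either. The Cy3 count of 39 became 63 with no filter, 20 with the replicate block and 25 to 3248 without one array. In Cy5 alone probes 5465280, 5462082, 5462224, 5461240 and 5458322 turned to 0.80, 1.36, 0.43, 1.65 and 1.35. cd9a turned to 0.99 in the authors' table, through 1 value of 9.45 in S2 replicate 3. The cause of these changes was not tested. Other named values changed sign 60 times, none of them called, and the islet and liver medians ranged from -1.62 to -2.29 and from -0.85 to -1.24 over the alternatives, less than 1 SD of the S2 arrays (1.00 and 0.44) from the reported values, but for the islet list by more than the S1 SD of 0.07 in several. The fits share most of their arrays, so shifts below the S2 SD do not show that the medians are stable. Within the large-spot arrays, with 1 S2 array, the islet median was -2.91. Print-tip loess was not run, since the array files used here name no print blocks. Dim and saturated signals limit single genes, and most exocrine pancreas genes were saturated.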
